A study of Homo sapiens with 10 samples.

Results

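The genes described here encode the core and accessory subunits of Polycomb repressive complex 2 (PRC2). They were the rows of 4 gene tables whose symbol is EZH1, EZH2, EED, SUZ12, RBBP4, JARID2, AEBP2, MTF2, PHF1 or PHF19. All 10 symbols were present among the 23245 genes of each table, and 9 of the 10 had values above 0.

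PRC2 methylates lysine 27 of histone H3. EZH1 or EZH2 carries the catalytic SET domain, EED binds the trimethylated mark and stimulates the enzyme, SUZ12 is the scaffold, and RBBP4 is a WD40 histone chaperone that PRC2 shares with other complexes. The core joins either a Polycomb-like protein (PHF1, MTF2 or PHF19), which binds DNA and methylated H3K36, or JARID2 together with AEBP2. The trimethylated mark is read by the chromodomains of CBX proteins of Polycomb repressive complex 1 (PRC1). The synthetic activator studied here, PcTF, fuses the CBX8 chromodomain to mCherry and the VP64 activation domain, so it binds the mark that PRC2 makes.

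Cells of 3 established lines, U-2 OS from an osteosarcoma, SK-N-SH from a neuroblastoma and K562 from a leukaemia, were transfected with 2 µg of PcTF plasmid, and mock-transfected cells of the same line received lipid reagent alone. Growth after transfection lasted up to 48 h for K562 cells and up to 96 h for the adherent lines. U2OS-PcTF cells, a U-2 OS line with a doxycycline-inducible PcTF transgene, and U2OS-dTF cells, whose transgene lacks the chromodomain (ΔTF), both received doxycycline at 1 µg/ml for 96 h. Each of 7 columns was 1 library, and 1 column was the authors' mean over 3 PcTF libraries, namely 2 U2OS-PcTF libraries and the PcTF-transfected U-2 OS library. No sorting of transfected cells is described. In the paper's flow cytometry the share of PcTF-transfected cells with mCherry signal fell over time. It was a minority of cells in each line at the last time with signal. A transfected library may therefore average cells with and without PcTF, and most of its cells may have lacked visible PcTF. The study's methods describe more replicates of both stable lines than the labels and tables used here hold. The study compared these groups to ask which genes change when PcTF is present.

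No column had a replicate, so no p-value is given for a comparison of one column with another. The only p-values come from a fit across the transfected lines, described with the transfections. The deposited FPKM (fragments per kilobase of transcript, scaled to library depth) had to differ at least 2-fold for a gene to be called higher or lower. Log2 ratios were taken after adding 0.1 FPKM to both values. The brackets after them are exact 95% binomial intervals on the ratio of estimated reads, which cover counting error only and say nothing of variation between cultures. They assume the longest coding transcript of each gene. With the shortest, which leaves fewer estimated reads, 9 of the 27 intervals in the transfections excluded 0, against 16 with the longest, and the 7 lost were of EZH1, EED, AEBP2, PHF19 and RBBP4. For the authors' mean, the interval covers the counting error of the U2OS-dTF library alone.

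Depth, estimated from the FPKM worth of 1 read, ranged from 4.28e+06 to 7.40e+06 reads, and 13246 to 16089 genes were detected per library. CBX8, whose chromodomain is in the transgene, was at 6.43 FPKM in PcTF and 0.610 FPKM in mock U-2 OS cells, at 8.85 against 0.287 FPKM in SK-N-SH cells and at 14.3 against 1.59 FPKM in K562 cells. All 6 neuroblastoma markers reached 1 FPKM in both SK-N-SH libraries and all 6 erythroid markers did so in both K562 libraries. Of 6 mesenchymal markers, 4 reached 1 FPKM in both transfection libraries of U-2 OS and 2 were listed at 0. Their sum was higher in mock SK-N-SH (1193 FPKM) than in mock U-2 OS cells (426 FPKM). U2OS-dTF cells had 3 of the 6 at 1 FPKM or more and 3 listed at 0, with a sum of 275.9 FPKM. The authors' PcTF mean had 4 at that level and 2 at 0, with a sum of 373.8 FPKM. Between the 2 K562 libraries the erythroid sum differed, with 15757 FPKM in PcTF and 4598 FPKM in mock cells. The U2OS-dTF library stood apart from mock U-2 OS cells: 60.9% of genes with 1 FPKM or more in either library differed by 2-fold. Between mock cells of different lines this share was 42.4% for SK-N-SH over U-2 OS. It was 70.7% for K562 over U-2 OS and 69.2% for K562 over SK-N-SH.

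PHF1, a Polycomb-like protein, could not be assessed. Its deposited interval (hg19) is on the alternate haplotype contig 6_ssto_hap7, at 4859021 to 4864476, and it was listed at 0 in all 8 columns. On that contig 148 of 165 genes were listed at 0 throughout (89.7%), compared with 3284 of 23006 genes on other sequences (14.3%). For RBBP4 (chr1:33116749-33168361) the deposited interval is also that of SYNC, so overlapping reads could have been divided between them. SUZ12 (chr17:30264044-30328057) has a near copy, SUZ12P, with its own row, and reads of shared sequence may be assigned to either. The other members lie at chr7:148504464-148581441 (EZH2, minus strand), chr17:40852293-40897071 (EZH1, minus strand), chr11:85955806-85989785 (EED), chr6:15246527-15522253 (JARID2), chr12:19592608-19675173 (AEBP2), chr1:93544792-93604638 (MTF2) and chr9:123617931-123639606 (PHF19, minus strand).

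Promoters are shown for 5 members on which the results below turn: EZH2 and EED, which were lower in the PcTF mean than in U2OS-dTF cells, AEBP2 and MTF2, which were higher there, and PHF19, which had the widest range of levels. The table of RefSeq promoters (GRCh38.p14) held all 10 members. Each line gives the 250 bases before the annotated start site, at chr7:148884292-148884541 (EZH2, minus strand), chr11:86244503-86244752 (EED), chr12:19440349-19440598 (AEBP2), chr1:93079033-93079282 (MTF2) and chr9:120868912-120869161 (PHF19, minus strand). Capitals mark the CCAAT box (CCAAT, or ATTGG on the other strand) and the ETS motif CCGGAAG.
EZH2: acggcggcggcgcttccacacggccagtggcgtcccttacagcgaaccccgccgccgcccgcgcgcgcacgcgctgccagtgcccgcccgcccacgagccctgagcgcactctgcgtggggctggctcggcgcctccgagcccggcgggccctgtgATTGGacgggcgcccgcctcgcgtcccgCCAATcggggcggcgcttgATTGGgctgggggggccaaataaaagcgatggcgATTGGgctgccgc
EED: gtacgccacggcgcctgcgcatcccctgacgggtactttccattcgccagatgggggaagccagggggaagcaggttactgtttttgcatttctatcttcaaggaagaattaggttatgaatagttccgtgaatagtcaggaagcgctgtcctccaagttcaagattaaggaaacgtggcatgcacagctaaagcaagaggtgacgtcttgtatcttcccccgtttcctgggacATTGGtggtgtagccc
AEBP2: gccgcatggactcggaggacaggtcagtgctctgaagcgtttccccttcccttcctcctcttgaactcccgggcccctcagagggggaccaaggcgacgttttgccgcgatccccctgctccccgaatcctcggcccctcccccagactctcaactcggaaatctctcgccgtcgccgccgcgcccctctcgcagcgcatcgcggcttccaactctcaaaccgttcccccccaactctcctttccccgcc
MTF2: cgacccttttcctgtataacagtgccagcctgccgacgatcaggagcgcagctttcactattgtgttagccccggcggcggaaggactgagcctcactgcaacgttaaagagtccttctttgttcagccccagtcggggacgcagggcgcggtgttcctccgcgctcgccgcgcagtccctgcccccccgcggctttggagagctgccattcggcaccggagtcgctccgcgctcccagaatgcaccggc
PHF19: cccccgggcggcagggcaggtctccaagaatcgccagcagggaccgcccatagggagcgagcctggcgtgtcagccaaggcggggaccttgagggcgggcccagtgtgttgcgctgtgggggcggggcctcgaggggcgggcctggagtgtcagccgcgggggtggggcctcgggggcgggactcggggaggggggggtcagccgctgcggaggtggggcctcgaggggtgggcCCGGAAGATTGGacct
EZH2 held 4 CCAAT boxes, EED held 1, and PHF19 held 1 next to an ETS motif, while AEBP2 and MTF2 held none of these letters in this window. The CCAAT box was present in 6 of 10 members (EZH2, EED, SUZ12, JARID2, PHF19 and RBBP4) and in 33.0% of 27305 promoters of the same length. Its presence did not follow the direction of the calls in the PcTF mean over U2OS-dTF. JARID2, also called higher there, held a CCAAT box, and EZH1, also called lower, held none. The GC box GGGCGG was in 7 of 10 members, compared with 42.3% of promoters. An E2F motif (TTTGGCGC, TTTCGCGC or TTTCCCGC) occurred only in SUZ12 among the members and in 2.38% of promoters, and the ETS motif occurred only in PHF19 and in 8.82% of promoters. Both strands were searched, and GC boxes, which are not capitalised, can overlap one another. The 5 windows were of unlike base composition, with 75.6% G and C in EZH2 and PHF19, 66.0% in AEBP2, 64.4% in MTF2 and 51.2% in EED, against a median of 58% over all promoters.

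Few PRC2 genes differed by 2-fold between PcTF-transfected and mock-transfected cells. In U-2 OS cells no member was called in either direction, whereas 13.4% of all genes were higher and 9.18% lower. SK-N-SH cells had 1 member called higher, PHF19, and none lower, compared with 10.3% and 6.24% of all genes. In K562 cells 2 members, AEBP2 and MTF2, were called higher and none lower, compared with 24.9% and 9.08% of all genes. All 9 measured members were above 1 FPKM, and among genes at that level the shares called higher were 6.09% in SK-N-SH, 12.7% in U-2 OS and 29.1% in K562 cells. The shares called lower at that level were 2.91% in SK-N-SH, 5.95% in U-2 OS and 12% in K562 cells. With 9 measured members the counts are small, and whether they differ from these shares was not tested. At a limit of 1.5-fold, 3 members were lower in U-2 OS, 2 higher in SK-N-SH and 4 higher in K562 cells, beside 13.7%, 15.9% and 32.2% of all genes.

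The 3 lines were also taken as replicates of PcTF over mock, in a limma fit of log2 FPKM with line as a block, which was chosen after seeing the data and left 2 residual degrees of freedom. Of 14837 genes fitted, 0% passed an adjusted p of 0.05 and 766 (5.16%) an unadjusted p of 0.05. Among the 9 members 0 passed the adjusted and 1, PHF19, the unadjusted limit. Its mean log2 ratio was 0.83 [0.14 to 1.51], positive in 3 of 3 lines (adjusted p = 0.73 by limma). EED was above and EZH2 and JARID2 were below the mock level in 3 of 3 lines. Their mean log2 ratios were 0.39 [-0.27 to 1.06], -0.28 [-0.80 to 0.23] and -0.34 [-0.97 to 0.29]. These signs are of ratios without centring. Centred on the median of genes of 1 FPKM or more in both columns, EED in K562 cells was at -0.10. The share of all fitted genes with the same sign in 3 of 3 lines was not counted. K562 cells were grown for a shorter time than the other lines, which this fit cannot separate.

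The authors' PcTF mean differed more from U2OS-dTF cells. JARID2, AEBP2 and MTF2 were called higher and EZH1, EZH2 and EED lower, which is 3 members each way, while 40.5% of all genes were called higher and 9.84% lower. Among genes of 1 FPKM or more the shares were 36.6% and 14.8%. With 1 FPKM added or after subtraction of the all-gene shift the JARID2 call was lost (0.92 and 0.73). Rescaled to equal column sums, RBBP4 was also higher (1.01) and EZH2 was no longer called (-0.95). None of the 6 calls remained when mock-transfected U-2 OS cells took the place of U2OS-dTF as the reference. With the U2OS-PcTF libraries alone, derived by removing the transfected library from the mean, 3 members were higher and 1, EED, lower than in U2OS-dTF cells, beside 40.5% and 9.39% of all genes.

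The median log2 ratio of the 9 measured members was -0.13 for U-2 OS, 0.20 for SK-N-SH and 0.53 for K562 cells, and 0.34 for the PcTF mean over U2OS-dTF. Over all genes of 1 FPKM or more in either column the medians were 0.08, 0.10, 0.37 and 0.52 in the same order. Genes of 1 FPKM or more in both columns were shifted upward by 0.28 in K562 cells and by 0.31 in the PcTF mean. After this shift was subtracted the members' medians were 0.25 and 0.032.

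**Figure D1:**
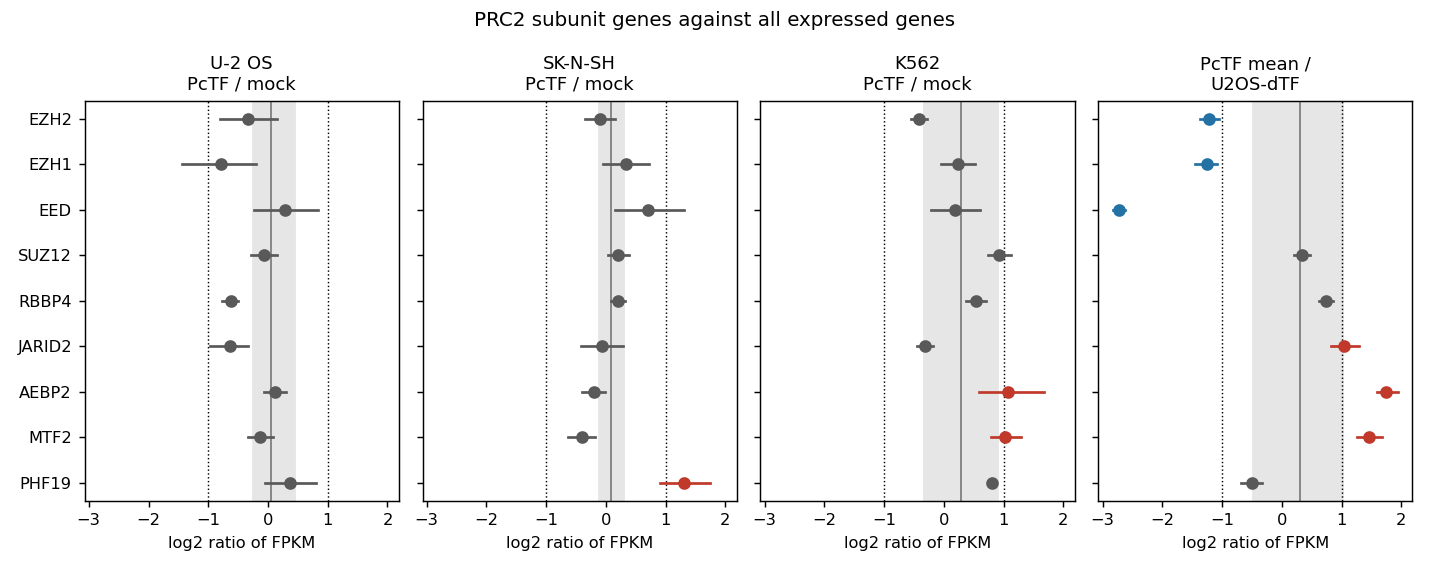
Log2 ratio of FPKM (horizontal axis) of the 9 measured PRC2 genes in 4 comparisons, with 0.1 FPKM added; bars are 95% counting intervals, the grey band and line are the interquartile range and median of genes with 1 FPKM or more in both columns, and dotted lines mark 2-fold. Red points were called higher and blue points lower; calls in both directions appear only in the panel of the PcTF mean over U2OS-dTF, with EED at -2.72 and AEBP2 at 1.75.

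EZH2, the main catalytic subunit of dividing cells, was somewhat lower with PcTF in all 3 lines, but only in K562 cells was the difference beyond counting error. It was at 6.16 FPKM in PcTF and 7.80 FPKM in mock U-2 OS cells (log2 ratio -0.34 [-0.81 to 0.14]). SK-N-SH cells had 18.1 FPKM with PcTF and 19.4 FPKM in mock cells (-0.10 [-0.35 to 0.15]). The K562 values were the highest, with 56.5 FPKM in PcTF and 75.5 FPKM in mock cells (-0.42 [-0.55 to -0.29]). None of these differences reached 2-fold.

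In the PcTF mean EZH2 was at 9.68 FPKM, against 22.5 FPKM in U2OS-dTF cells (-1.21 [-1.38 to -1.06]). The derived U2OS-PcTF mean was 11.4 FPKM, just inside the 2-fold limit (-0.97). That mean was above mock U-2 OS cells (0.55), as was U2OS-dTF (1.52 [1.196 to 1.88]). The direction for EZH2 therefore differed with the reference.

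EZH1, the paralogue that is kept in non-dividing cells and has weaker enzymatic activity, did not share one direction across lines. PcTF-transfected U-2 OS cells had 1.84 FPKM, against 3.23 FPKM in mock cells (-0.78 [-1.44 to -0.21]), which rests on 35 and 70 estimated reads. It was at 5.17 FPKM in PcTF and 4.07 FPKM in mock SK-N-SH cells (0.34 [-0.05 to 0.73]), and at 9.17 FPKM in PcTF and 7.79 FPKM in mock K562 cells (0.23 [-0.04 to 0.52]). In the last 2 lines the interval included 0. The PcTF mean was 3.99 FPKM, against 9.67 FPKM in U2OS-dTF cells (-1.25 [-1.45 to -1.09]).

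**Figure D2:**
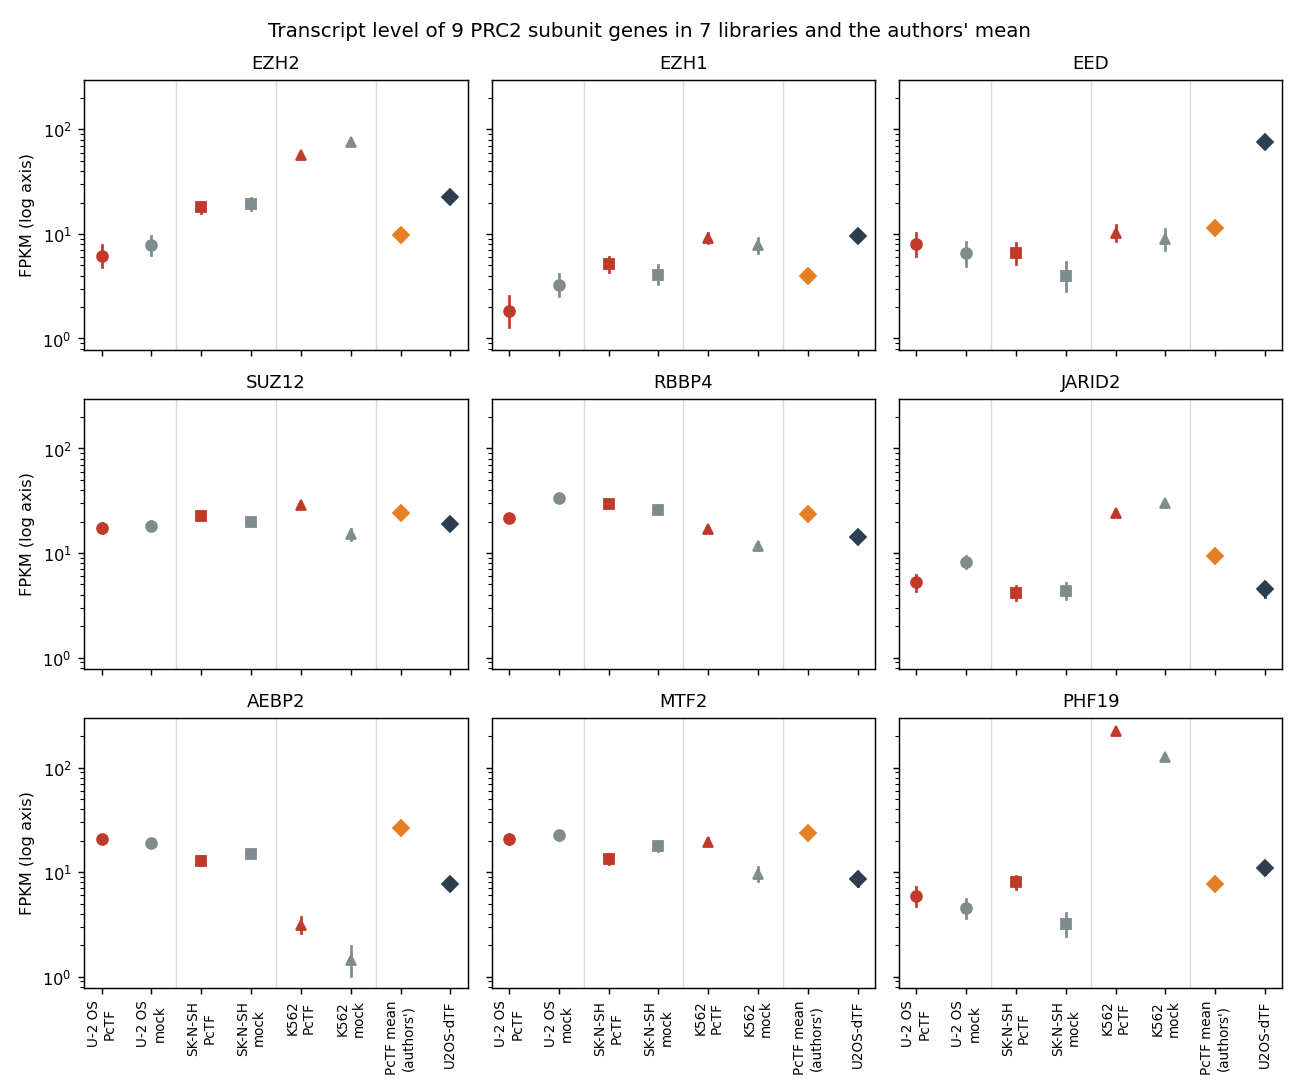
FPKM on a log axis for 9 PRC2 genes in 7 libraries and the authors' PcTF mean (orange), with PcTF libraries in red, mock in grey and U2OS-dTF in dark blue; bars are 95% Poisson counting intervals, and the mean has none. EED stands at 75.9 FPKM in U2OS-dTF and below 12 FPKM in the other columns, and PHF19 exceeds 100 FPKM only in the K562 libraries.

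EED, the subunit that reads the trimethylated mark, stood apart in 1 library. Among the 7 libraries it was at 75.9 FPKM in U2OS-dTF cells and between 3.94 and 10.2 FPKM in the other 6. The U2OS-dTF value rests on 830 estimated reads, and its ratio to the next library, PcTF-transfected K562, had an interval of 2.63 to 3.16 on the log2 scale. The PcTF mean for EED was 11.4 FPKM, which gave -2.72 [-2.83 to -2.63] against U2OS-dTF, and U2OS-dTF over mock U-2 OS cells gave 3.51 [3.16 to 3.94], or 11.6-fold.

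Within the transfections EED lay within 2-fold in each line. It was at 8.00 FPKM in PcTF and 6.57 FPKM in mock U-2 OS cells (0.28 [-0.23 to 0.83]), and at 10.2 FPKM in PcTF and 8.98 FPKM in mock K562 cells (0.18 [-0.21 to 0.61]). SK-N-SH cells had 6.52 FPKM with PcTF and 3.94 FPKM in mock cells (0.71 [0.15 to 1.31]), the one line where the interval lay above 0. The derived U2OS-PcTF mean of 13.1 FPKM was 2.00-fold the mock U-2 OS value and so stood at the limit of a call, the only one among the members in that comparison, where 28.4% of all genes were higher and 9.31% lower. With 0.1 FPKM added this log2 ratio was 0.99, and it was 0.78 after rescaling to equal column sums.

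SUZ12, the scaffold, had the narrowest range of all members, from 15.0 FPKM in mock K562 to 28.7 FPKM in PcTF-transfected K562 cells, or 1.91-fold over the 7 libraries. In K562 cells its ratio was 0.93 [0.74 to 1.13], while SUZ12P was lower with PcTF (8.49 FPKM, against 18.3 FPKM in mock cells). The part that reads shared with SUZ12P have in this ratio was not tested. SUZ12 was at 17.4 FPKM in PcTF and 18.3 FPKM in mock U-2 OS cells (-0.07 [-0.29 to 0.15]). SK-N-SH cells had 22.8 FPKM with PcTF and 19.8 FPKM in mock cells (0.20 [0.03 to 0.38]). The PcTF mean of 24.2 FPKM and the U2OS-dTF value of 19.1 FPKM also lay close together (0.34 [0.21 to 0.47]), and SUZ12P was at 11.6 FPKM in the mean and 22.4 FPKM in U2OS-dTF cells.

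RBBP4, the histone chaperone, had a ratio of one sign in U-2 OS cells and of the other in both remaining lines, below 2-fold in each. It was at 21.6 FPKM in PcTF and 33.5 FPKM in mock U-2 OS cells (-0.63 [-0.77 to -0.50]). SK-N-SH cells had 29.4 FPKM with PcTF and 25.6 FPKM in mock cells (0.20 [0.08 to 0.32]). K562 cells had 16.9 FPKM with PcTF and 11.7 FPKM in mock cells (0.53 [0.37 to 0.71]), which became 0.25 once the shift of all genes was subtracted. The PcTF mean was 23.5 FPKM, against 14.1 FPKM in U2OS-dTF cells (0.74 [0.63 to 0.85]), and the derived U2OS-PcTF mean lay below mock U-2 OS cells (-0.45).

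Of the Polycomb-like subunits, PHF19 was called higher with PcTF in SK-N-SH cells, at 7.95 FPKM against 3.16 FPKM in mock cells (1.31 [0.91 to 1.75]). K562 cells had far more of this transcript, 222.6 FPKM with PcTF and 127.0 FPKM in mock cells (0.81 [0.74 to 0.88]). After subtraction of the all-gene shift the K562 ratio was 0.52. U-2 OS cells had 5.88 FPKM with PcTF and 4.55 FPKM in mock cells (0.36 [-0.06 to 0.81]). All 3 ratios were positive, and the U-2 OS interval included 0. The PcTF mean was 7.64 FPKM, lower than the 10.9 FPKM of U2OS-dTF cells (-0.50 [-0.69 to -0.33]), although the derived U2OS-PcTF mean of 8.52 FPKM was above mock U-2 OS cells (0.89).

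MTF2, the other measured Polycomb-like gene, was called higher in K562 cells, at 19.6 FPKM with PcTF and 9.56 FPKM in mock cells (1.03 [0.79 to 1.29]). In SK-N-SH cells it was lower, at 13.3 FPKM with PcTF and 17.7 FPKM in mock cells (-0.41 [-0.63 to -0.19]), and in U-2 OS cells it was at 20.6 and 22.5 FPKM (PcTF and mock, -0.13 [-0.34 to 0.08]). The K562 call was lost on centring, where the ratio was 0.74. The PcTF mean of 23.7 FPKM exceeded the 8.60 FPKM of U2OS-dTF cells (1.45 [1.26 to 1.67]), but the derived U2OS-PcTF mean was nearly level with mock U-2 OS cells (0.17).

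JARID2 and AEBP2 define the other form of the complex, JARID2 being a catalytically inactive Jumonji protein that helps recruit PRC2 and AEBP2 a zinc finger protein that stabilises it. JARID2 was at 5.25 FPKM in PcTF and 8.26 FPKM in mock U-2 OS cells (-0.64 [-0.98 to -0.34]). It was also lower in K562 cells, with 24.2 FPKM in PcTF and 30.1 FPKM in mock cells (-0.31 [-0.45 to -0.18]), and nearly level in SK-N-SH cells at 4.17 FPKM with PcTF and 4.37 FPKM in mock cells (-0.07 [-0.41 to 0.28]). No line showed a higher JARID2 level with PcTF by transfection. The PcTF mean, in contrast, was 9.38 FPKM, against 4.50 FPKM in U2OS-dTF cells (1.04 [0.83 to 1.30]), and the derived U2OS-PcTF mean was 0.47 above mock U-2 OS cells on the log2 scale.

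AEBP2 was the least abundant measured member in K562 cells. It was called higher there, with 3.14 FPKM in PcTF and 1.44 FPKM in mock cells (1.07 [0.59 to 1.68]), and the ratio was 0.79 after centring. SK-N-SH cells had 12.9 FPKM with PcTF and 14.9 FPKM in mock cells (-0.21 [-0.40 to -0.01]), and U-2 OS cells had 20.7 and 19.1 FPKM (PcTF and mock, 0.12 [-0.06 to 0.30]). Its PcTF mean of 26.2 FPKM against 7.71 FPKM in U2OS-dTF cells gave the highest ratio of the members in that comparison (1.75 [1.59 to 1.95]). Against mock U-2 OS cells the derived U2OS-PcTF mean gave 0.60.

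The K562 differences stood beside others between the same libraries. These were the erythroid marker sum given above, a depth of 7.40e+06 reads with PcTF and 4.67e+06 in mock cells, and the all-gene shift of 0.28. Their part in the values of the PRC2 genes was not tested. The mesenchymal marker sum in U-2 OS cells was 199.3 FPKM with PcTF and 426 FPKM in mock cells, and its part was likewise not tested. In bulk RNA a lower level in every cell and a loss from some of the cells cannot be told apart.

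The balance between alternative subunits differed more between K562 and the other mock-transfected lines than between PcTF and mock cells of a line. EZH2 made up 77.01% of the EZH1 and EZH2 sum in PcTF and 70.8% in mock U-2 OS cells, 77.8% in PcTF and 82.6% in mock SK-N-SH cells, and 86.0% in PcTF and 90.6% in mock K562 cells. EZH2 exceeded EZH1 in every column, and its share was 70.8% in the PcTF mean and 70.0% in U2OS-dTF cells. The log2 of EZH2 over EZH1 was 3.28 [3.04 to 3.53] in mock K562 and 2.25 [1.90 to 2.61] in mock SK-N-SH cells. It was 1.27 [0.80 to 1.73] in mock U-2 OS cells. These intervals, which rest on the longest coding transcripts and 1 library per line, did not overlap. With the shortest, EZH1 had 12, 7 and 5 estimated reads in the same order, and the intervals were not recomputed. FPKM is scaled to transcript length, which allows only an approximate comparison between genes. The shares may depend on the transcripts assumed and on reads divided with SYNC or SUZ12P.

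Among the 4 measured accessory genes PHF19 held 82.6% of the FPKM sum in PcTF and 75.5% in mock K562 cells. Its share was 20.8% in PcTF and 7.88% in mock SK-N-SH cells, and 11.2% in PcTF and 8.36% in mock U-2 OS cells. In the transfection libraries of U-2 OS and SK-N-SH MTF2 and AEBP2 were the largest parts, with 41.4% and 35.0% in mock U-2 OS cells and 44.2% and 37.1% in mock SK-N-SH cells. U2OS-dTF cells had 34.3% PHF19, 27.1% MTF2 and 24.3% AEBP2. AEBP2 was 1.16% of the sum in PcTF and 0.856% in mock K562 cells.

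In the core, U2OS-dTF cells stood apart. EED was 53.7% of the core sum there and 15.7% in the PcTF mean, and the ratio of EED to SUZ12 was 3.98 in U2OS-dTF cells, 0.47 in the PcTF mean and between 0.20 and 0.60 in the 6 transfection libraries. The accessory sum ran the other way, at 66.9 FPKM in the PcTF mean, against 31.7 FPKM in U2OS-dTF cells. EZH2 was 46.5% of the core sum in PcTF and 63.4% in mock K562 cells, the largest core share in both.

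**Figure D3:**
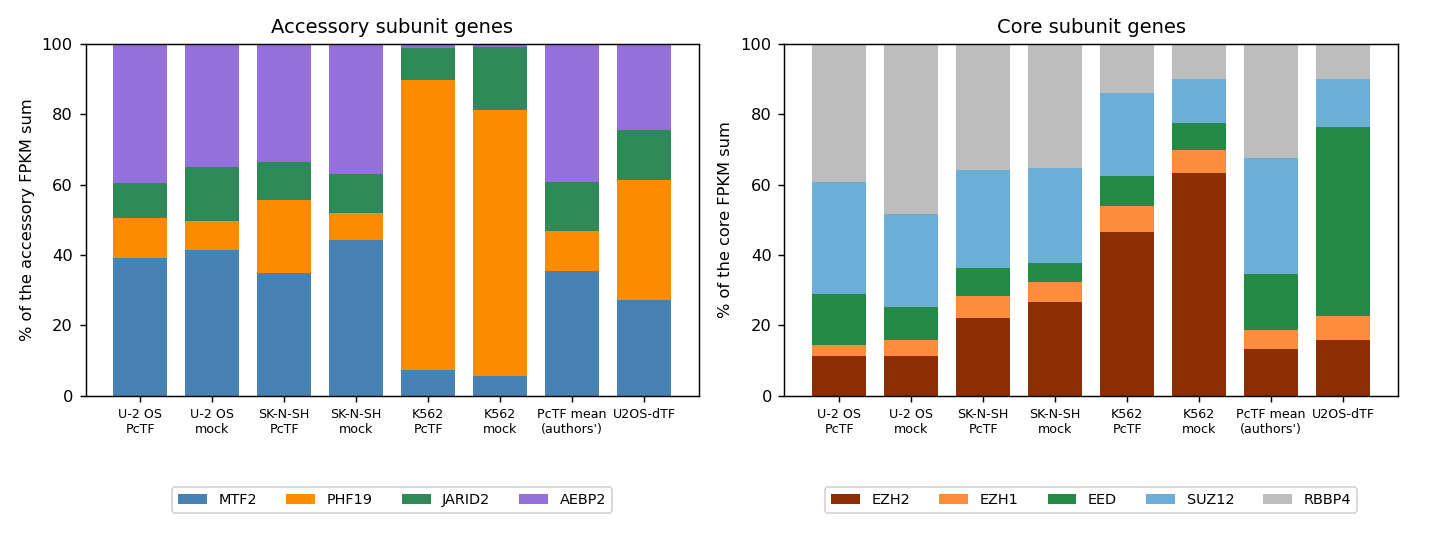
Share of the FPKM sum (vertical axis, percent) of 4 accessory genes (left) and 5 core genes (right) in 7 libraries and the authors' PcTF mean, with each PcTF column left of its reference. PHF19 fills 82.6% and 75.5% of the accessory bar in the PcTF and mock K562 libraries, and EED fills 53.7% of the core bar in U2OS-dTF.

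Levels across the mock-transfected lines came from separate tables, and a common scale between the lines was not tested, so they are given as a description. In mock K562 over mock U-2 OS cells, 4 members were called higher and 3 lower, while 22% of all genes were higher and 32.2% lower. PHF19 differed most, at 127.0 FPKM in K562 and 4.55 FPKM in U-2 OS cells, or 27.9-fold. EZH2 was 9.68-fold, JARID2 3.65-fold and EZH1 2.41-fold higher in K562 cells. AEBP2, MTF2 and RBBP4 were lower there, with log2 ratios of -3.64 [-4.24 to -3.25], -1.23 [-1.50 to -0.98] and -1.51 [-1.68 to -1.36]. K562 columns summed to more FPKM than the others, and rescaling every column to the same sum would lower each K562 log2 ratio over U-2 OS cells by 0.79. EZH1 would then lose its call (0.46) and SUZ12 would be called lower (-1.07).

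Mock SK-N-SH and mock U-2 OS cells were more alike in these genes. EZH2 alone was called, at 19.4 FPKM in SK-N-SH and 7.80 FPKM in U-2 OS cells (1.30 [0.97 to 1.68]), with 18.1% of all genes called higher and 20% lower. The remaining 8 measured members lay within 2-fold, and for SUZ12 and EZH1 the interval included 0. Between mock K562 and mock SK-N-SH cells, 4 members (PHF19, JARID2, EZH2 and EED) were called higher and 2 (AEBP2 and RBBP4) lower, beside 21.8% and 30.4% of all genes. Equal column sums would lower these ratios by 0.77, so that EED would lose its call (0.40) and SUZ12 (-1.16) and MTF2 (-1.65) would be called lower.

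**Figure D4:**
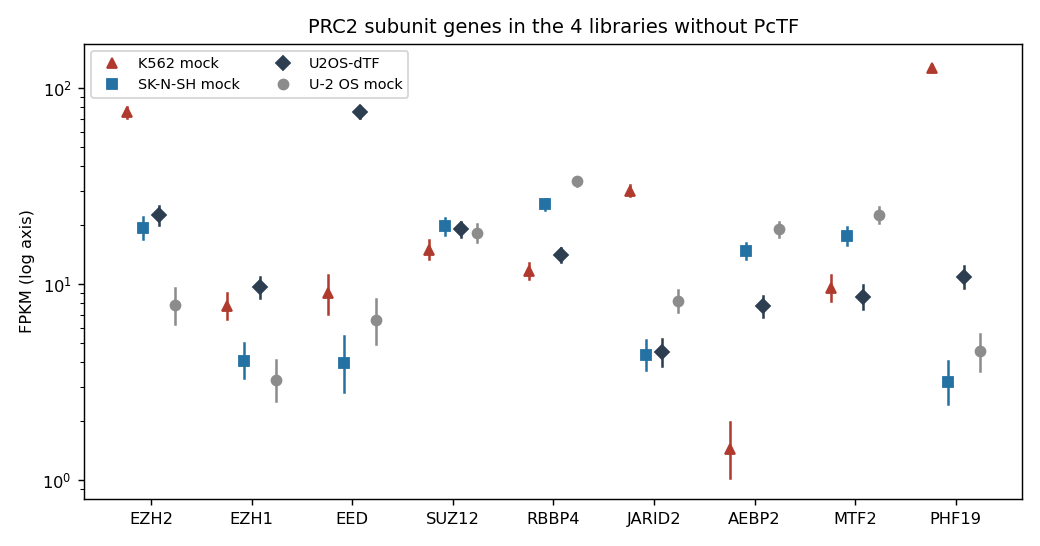
FPKM (log axis) of 9 PRC2 genes in mock-transfected K562 and SK-N-SH, U2OS-dTF and mock-transfected U-2 OS cells, with 95% Poisson counting intervals. K562 cells are highest for EZH2, JARID2 and PHF19 and lowest for AEBP2 and RBBP4, whereas the 4 SUZ12 points lie between 15.0 and 19.8 FPKM.

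U2OS-dTF over mock U-2 OS cells, also across tables, gave 4 members called higher (EED, EZH1, EZH2 and PHF19) and 3 lower (MTF2, AEBP2 and RBBP4). Of all genes 18.3% were higher and 29.2% lower. SUZ12 was level (0.061 [-0.14 to 0.26]), and JARID2 was at 4.50 FPKM in U2OS-dTF and 8.26 FPKM in mock U-2 OS cells (-0.86 [-1.18 to -0.57]). Equal column sums would lower these log2 ratios by 0.44, so that PHF19 would lose its call (0.80) and JARID2 would be called lower (-1.30). This comparison shares the U2OS-dTF library with that of the PcTF mean.

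Over the 7 libraries the fold range was 70.5 for PHF19, 19.3 for EED, 14.4 for AEBP2, 12.3 for EZH2, 7.23 for JARID2, 5.26 for EZH1, 2.87 for RBBP4, 2.62 for MTF2 and 1.91 for SUZ12. In descending order of EZH2 level the libraries were mock K562, PcTF K562, U2OS-dTF, mock SK-N-SH, PcTF SK-N-SH, mock U-2 OS and PcTF U-2 OS. Counting error set mock K562 apart from PcTF K562, PcTF K562 from U2OS-dTF, and PcTF SK-N-SH from mock U-2 OS, but no other neighbours. For EED no neighbours in the order were apart other than U2OS-dTF from the rest and the 2 SK-N-SH libraries from each other. All 6 neighbouring pairs were apart for RBBP4 with its longest coding transcript, and 0 with its shortest. For EED and EZH2 the shortest left 1 and 3 pairs apart.

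The nearest profiles to EZH2 among 7448 genes with 1 FPKM or more in all 7 libraries, by the mean absolute difference of centred log2 values, were RPL6 (0.15), THYN1 (0.17), FAM216A (0.19), BCOR (0.21) and TMEM208 (0.24). The median over genes was 1.11. EZH1 was at 0.59 from EZH2, in place 609, and AEBP2 was the most distant member at 2.104. For EZH1 the nearest were C2orf18 (0.17), MIF4GD (0.19), OGG1 (0.20), LOC645212 (0.21) and BCKDK (0.21).

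Other Polycomb-related genes are given for context. Of 8 symbols of further PRC2-associated genes, 5 had rows (RBBP7, C17orf96, C10orf12, LCOR and LCORL). Of these 1 was called higher in U-2 OS cells, C17orf96 (also named EPOP, an elongin-binding partner of PRC2), whose 2 values (0.925 FPKM with PcTF and 0.406 FPKM in mock cells) were both below 1 FPKM. None was called in SK-N-SH cells, and C17orf96 was again called higher in K562 cells, at 1.60 FPKM with PcTF and 0.635 FPKM in mock cells. It was lower in the PcTF mean, at 0.982 FPKM, than in U2OS-dTF cells, at 3.36 FPKM. RBBP7, the paralogue of RBBP4, was within 2-fold in all 4 comparisons, with log2 ratios of -0.05 to 0.59. For each comparison the shares of all genes called are those given above.

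KDM6A and KDM6B, which remove H3K27 methylation, were not called in any transfected line. KDM6A was at 9.79 FPKM in the PcTF mean, against 0.713 FPKM in U2OS-dTF and 10.0 FPKM in mock U-2 OS cells, so its call in the PcTF mean over U2OS-dTF (3.61) again went with the U2OS-dTF value. KDM6B was at 5.88 FPKM in the PcTF mean and 7.45 FPKM in U2OS-dTF cells (-0.34).

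Of 8 PRC1 RING and PCGF genes, 1 was called higher in SK-N-SH cells and 1 in U-2 OS cells, in each case BMI1, a PCGF subunit of PRC1 whose exons are shared with a read-through gene. It was at 45.8 FPKM with PcTF and 17.04 FPKM in mock U-2 OS cells, and at 8.68 FPKM with PcTF and 2.11 FPKM in mock SK-N-SH cells. K562 cells had 2 higher, BMI1 (8.42 FPKM with PcTF, 0.000217 FPKM in mock cells) and PCGF2 (2.62 FPKM with PcTF, 0.357 FPKM in mock cells), and 1 lower, PCGF3 (14.6 FPKM with PcTF, 35.3 FPKM in mock cells). The PcTF mean over U2OS-dTF had 2 each way. BMI1 was at 32.2 FPKM in the mean and 13.5 FPKM in U2OS-dTF cells and PCGF1 at 13.8 FPKM in the mean and 3.68 FPKM in U2OS-dTF cells, while PCGF6 (7.03 FPKM in the mean, 40.6 FPKM in U2OS-dTF cells) and PCGF2 (10.03 FPKM in the mean, 26.02 FPKM in U2OS-dTF cells) were lower. The shares of all genes called are those given above for each comparison. RING1 was listed at 0 in every column, so 7 of the 8 were measured, with medians of 0.25, -0.02, 0.22 and 0.37 in the 4 comparisons.

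The 14 SWI/SNF genes, which encode a remodeller that opposes Polycomb, had 1 call in U-2 OS cells (lower), none in SK-N-SH, 3 in K562 cells (higher), and 5 higher and 1 lower in the PcTF mean over U2OS-dTF. Among genes of 1 FPKM or more, 29.1% were called higher in K562 cells and 36.6% in the PcTF mean, so these counts are near the background. The 3 in K562 cells were SMARCD2 (15.7 FPKM with PcTF, 2.75 FPKM in mock cells), SMARCD1 (10.4 FPKM with PcTF, 1.86 FPKM in mock cells) and SMARCB1 (12.5 FPKM with PcTF, 2.56 FPKM in mock cells). Of 18 proliferation genes, with which EZH2 is commonly co-expressed, none was called in U-2 OS or SK-N-SH cells, and 5 were higher and 1 lower in K562 cells. In the PcTF mean over U2OS-dTF 2 proliferation genes were higher and 3 lower, beside 36.6% and 14.8% of genes of 1 FPKM or more. E2F1 (2.80 FPKM in the mean, 13.0 FPKM in U2OS-dTF cells) was among the lower. Between mock K562 and mock SK-N-SH cells 14 of the 18 were higher in K562 cells, with a median log2 ratio of 1.47, where 21.8% of all genes and 32.4% of genes of 1 FPKM or more were higher. Equal column sums would lower this median by 0.77.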

How the data were processed

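Total RNA of each culture was amplified to cDNA and sequenced as single-end reads. Per the submitters' processing notes, the authors used FastQC, TopHat2 2.1.0, Bowtie2, Cufflinks and Cuffdiff on hg19, and HTSeq, DESeq and DESeq2 for counts that were not used here. The deposited FPKM values were made by the authors with Cuffdiff, scaled to library depth and transcript length. Their columns of log2 fold change, test statistic, p-value, q-value and significance hold the authors' own comparisons and were not used. 4 tables of 23245 genes (23243 shared) were read with Python 3.11.15 and pandas 2.3.3. Of 10 samples, 9 are in the tables and 1 was not analysed here.

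The members, companion lists and cell type markers were chosen with earlier results of these data known. Named genes were all members, at most 4 genes per companion list and comparison by size of log2 ratio among genes of 1 FPKM or more, CBX8, and the 5 profiles nearest EZH2 and EZH1. A few genes outside this rule (C17orf96 in U-2 OS cells, KDM6A in mock cells and the RBBP7 range) were chosen after their values were seen.

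Depth was the inverse of the FPKM step of 1 read over 641 single-exon genes. 92.1% to 100% of low values were whole reads within 3%. Estimated reads used the longest coding transcript (GENCODE v44 lifted to GRCh37) and fragments of 200 bases (SD 80). The steps were tested on simulated data. As a check of the mean column, its lowest possible value was the level in transfected U-2 OS cells with PcTF divided by 3: 325 genes lay on it within 0.01% and 10 of 16049 over 1% below it. The U2OS-PcTF mean was derived by subtraction. Alternatives were the fold limit, pseudocount, scaling, a low-value filter, the mean used, the reference and the transcript length. A fit with limma 3.58.1 of log2(FPKM + 0.1), with line as a block, over the 6 transfection libraries and genes of 1 FPKM or more in at least 1 of them, was added after seeing the data.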

Additional observations from a re-analysis of the deposited data

Results flagged for a closer look

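In 3 genes the counting intervals of the log2 ratio, with the longest coding transcript, lay on opposite sides of 0 in a pair of lines. With the shortest, 0 of 3 transfection intervals excluded 0 for AEBP2, 1 of 3 for RBBP4 and 2 of 3 for MTF2. AEBP2 and RBBP4 then no longer had such a pair. The difference between lines was not tested, since each line had 1 PcTF and 1 mock library. AEBP2 was at 1.07 in K562 cells and -0.21 in SK-N-SH cells, and MTF2 was at 1.03 in K562 cells and -0.41 in SK-N-SH cells. RBBP4 was at 0.53 in K562 cells and at 0.20 in SK-N-SH cells, each against -0.63 in U-2 OS cells. After the all-gene shift of K562 cells was subtracted, the K562 ratios were 0.79 for AEBP2, 0.74 for MTF2 and 0.25 for RBBP4. K562 cells were also grown for up to 48 h and the other lines for up to 96 h, which cannot be told apart from the line.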

How the results depend on the processing

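The counts and medians of members were recomputed for the comparisons within 1 table, and no called ratio changed sign with the pseudocount or the scaling. With mock U-2 OS cells as the reference, the PcTF means of EZH1, EZH2 and EED (3.99, 9.68 and 11.4 FPKM) lay above the mock values (3.23, 7.80 and 6.57 FPKM), whereas they lay below U2OS-dTF. A limit of 1.5-fold gave 3 members lower in U-2 OS cells, 2 higher in SK-N-SH cells and 4 higher in K562 cells. Of all genes 13.7%, 15.9% and 32.2% were called in the same directions at that limit. At 2-fold the member counts were 0, 1 and 2. The 2 K562 calls became 0 with 1 FPKM added, 0 after centring on the median of genes with 1 FPKM or more in both columns, and 1 after rescaling to equal column sums. The K562 median became 0.25 after centring. For the PcTF mean over U2OS-dTF, taking mock-transfected U-2 OS cells as the reference gave 0 members higher and 0 lower, and the derived U2OS-PcTF mean gave 1 lower. The median of that comparison was 0.032 after centring, 0.61 after rescaling to equal column sums and 0.53 for the derived U2OS-PcTF mean. The all-gene shift and the column sums set the effect of centring and rescaling, and the cause of the change with reference was not tested.

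Of 36 member ratios, 16 moved beyond their counting interval on centring, 11 on rescaling and 1 with 1 FPKM added. Of 63 estimated read numbers, 53 moved with the shortest coding transcript and 1 with fragments of 300 bases, so the width of the counting intervals depends on the transcript assumed. No library could be left out, because each column but the mean was 1 library. By replicate number, no paired analysis was possible because the groups compared share fewer than 2 replicate numbers, and the fit with line as a block is given with the transfections. Depth limits EZH1 in U-2 OS cells most, where the PcTF library held 35 estimated reads.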
